A study of Mus musculus with 8 samples.

Results

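The 10 genes described here encode the receptors that bind TGF-β and the SMAD proteins that carry the signal, with 2 of their inhibitors. They were chosen by name in the deposited count table: Tgfbr1, Tgfbr2, Tgfbr3, Eng, Acvrl1, Smad2, Smad3, Smad4, Smad7 and Smurf2. All 10 were found, as 10 of 19150 rows, and all 10 were among the 18164 genes with enough reads to be tested. RNA was sequenced from the lungs of E17.5 embryos of C57BL mice, late in gestation. Whole lungs were used without oesophagus, trachea or bronchi. There were 4 groups of 2 libraries: mutant females, control females, mutant males and control males. The mutants expressed a constitutively active TGF-β receptor 1, with TGF-β signalling activated in the lung epithelium, and the series concerns TGF-β signalling and the disadvantage of males in bronchopulmonary dysplasia. The promoter that drives the active receptor, the alleles that controls carry and any pooling of embryos were not given in the sources used here. Labels do not say whether libraries came from separate embryos, so p-values measure how far these samples differ among themselves, which may be technical.

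TGF-β binds a type II receptor kinase, TGFBR2, which then phosphorylates a type I receptor kinase, TGFBR1. In endothelial cells ACVRL1, also called ALK1, is a further type I receptor, best known for BMP9 and BMP10, and endoglin, encoded by Eng, is its co-receptor. Betaglycan, encoded by Tgfbr3, presents the ligand to the signalling receptors. Active TGFBR1 phosphorylates SMAD2 and SMAD3, which join SMAD4 and enter the nucleus to regulate transcription. SMAD7 blocks the type I receptor and recruits the ubiquitin ligase SMURF2 to it, and Smad7 is itself a well known target of the pathway.

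The 8 libraries held 17561012 to 20243205 reads in genes. Mitochondrially encoded genes took 1.81% to 2.48% of them. Lung epithelial markers, 9 of the 10 looked up, summed to 7209 to 12014 CPM (counts scaled to the library size), fibroblast and mesenchyme markers (10 of 10) to 3601 to 3897 CPM and endothelial markers (13 of 13) to 2586 to 2971 CPM. Heart muscle markers summed to 14.9 to 88.5 CPM, and no marker looked up and found was at 0 in all libraries. The libraries were not sorted by cell type, and in whole lung fewer cells of a type and less RNA per cell cannot be told apart.

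RefSeq promoter windows, from 250 bases before to 50 bases after a gene's start in GRCm38.p6, were matched by symbol for 5 of the 10 genes. Those of the signalling pair Tgfbr1 and Tgfbr2 and of the endothelial co-receptor Eng are shown because they differ in base composition while their genes share a pathway. Capitals mark the GC box (GGGCGG or CCGCCC) and the SMAD element (CAGAC or GTCTG), the short motif that SMAD3 and SMAD4 bind. The windows lie at chr4:47352972-47353271 on the plus strand, chr9:116175314-116175613 on the minus strand and chr2:32646345-32646644 on the plus strand.
Tgfbr1: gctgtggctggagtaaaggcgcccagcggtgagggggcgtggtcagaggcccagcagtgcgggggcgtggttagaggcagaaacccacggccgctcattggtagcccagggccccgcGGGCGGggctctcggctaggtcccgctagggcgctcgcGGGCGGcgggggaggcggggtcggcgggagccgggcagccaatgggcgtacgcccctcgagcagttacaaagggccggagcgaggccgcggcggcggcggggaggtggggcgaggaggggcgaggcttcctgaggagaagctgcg
Tgfbr2: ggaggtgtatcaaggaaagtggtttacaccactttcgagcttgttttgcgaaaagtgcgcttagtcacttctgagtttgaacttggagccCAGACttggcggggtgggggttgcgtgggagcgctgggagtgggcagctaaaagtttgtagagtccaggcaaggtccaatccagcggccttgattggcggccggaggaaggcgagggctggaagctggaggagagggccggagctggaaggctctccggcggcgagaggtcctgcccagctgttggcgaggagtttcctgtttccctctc
Eng: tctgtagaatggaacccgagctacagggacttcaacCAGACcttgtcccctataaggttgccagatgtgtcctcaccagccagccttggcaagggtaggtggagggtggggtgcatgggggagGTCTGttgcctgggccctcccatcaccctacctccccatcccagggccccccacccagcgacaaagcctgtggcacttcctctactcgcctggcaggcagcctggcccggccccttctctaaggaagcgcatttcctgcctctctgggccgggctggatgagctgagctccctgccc
The Tgfbr1 window was 74.7% G and C, held 34 CpG, 2 GC boxes and 0 SMAD elements. For Tgfbr2 the share of G and C was 59.0%, with 15 CpG, 0 GC boxes and 1 SMAD element. The Eng window was 63.3% G and C but held 6 CpG, 0 GC boxes and 2 SMAD elements. A second window of Tgfbr1, at a later start, had 52.0% G and C and 1 SMAD element. Smad3 had 67.7% G and C and 2 GC boxes, and Smurf2, the richest of the 6 windows, 80.3% with 9 GC boxes, some overlapping, and 2 SMAD elements. Among 32851 promoter windows of the same length, 35.7% held a GC box and 49.6% a SMAD element on either strand. TATAAA, held by 13.6% of all windows on either strand, was in none of the 6. These are matches of letters only.

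Levels were compared between genes as RPKM, reads scaled to the library size and to the length of merged exons, with exon lengths from the GENCODE M21 annotation of GRCm38. Acvrl1 was the most abundant of the 10 at 48.9 ± 5.28 RPKM (SD, n = 8 libraries), and it exceeded the next gene in every library. Tgfbr2 at 32.3 ± 2.33 RPKM, Smad4 at 31.7 ± 1.10, Smurf2 at 31.1 ± 2.47 and Eng at 28.2 ± 2.27 followed, and these 4 overlapped as neighbours. Eng was above Smad3 in every library. Smad3 stood at 19.8 ± 2.10 RPKM, Tgfbr3 at 17.4 ± 2.95, Tgfbr1 at 13.4 ± 1.11 and Smad7 at 12.9 ± 2.55, again with neighbours that overlapped. Smad2 was lowest at 6.41 ± 0.424 RPKM, below Smad7 in every library. In RPKM, Tgfbr1 was thus lower than its partner Tgfbr2 in every library, and Smad2 lower than Smad3.

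**Figure D1:**
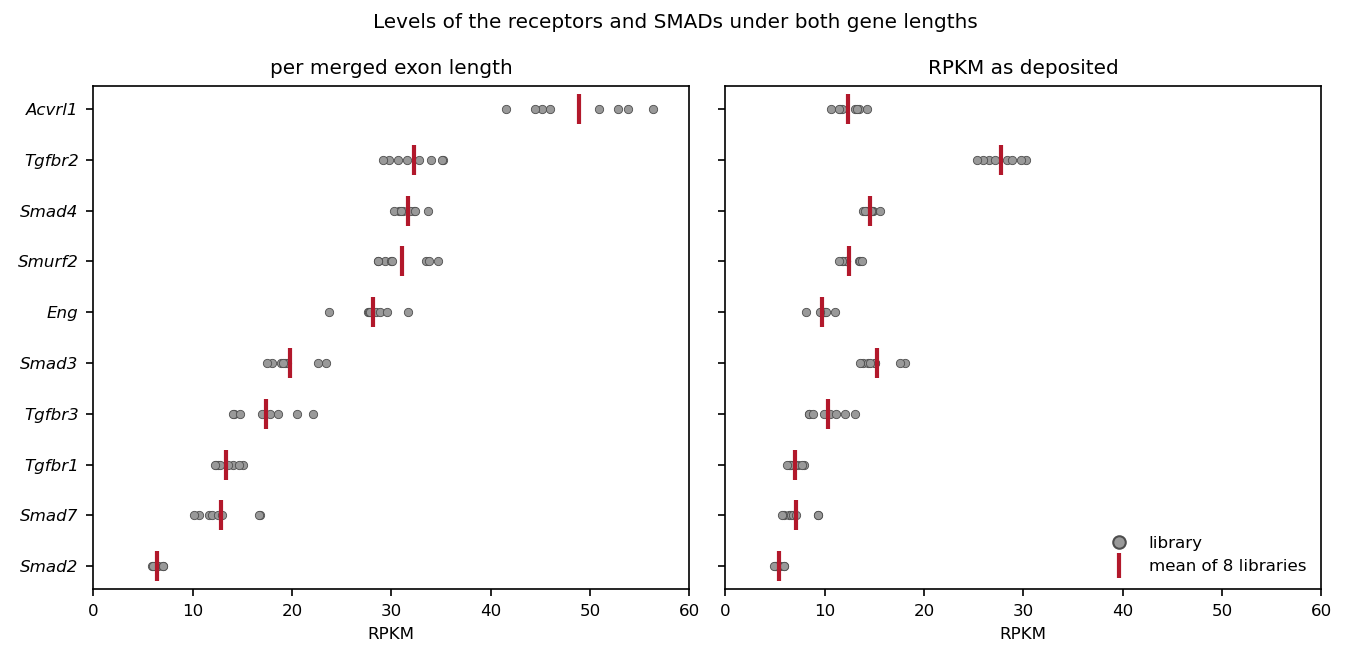
Level of each gene in RPKM from merged exon length, with 1 point per library and the mean, in order of the mean. Acvrl1 lies apart at 41.5 to 56.3 RPKM and Smad2 at 5.90 to 7.01 RPKM, while the genes between them overlap with a neighbour.

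The deposited RPKM values gave another order, with Tgfbr2 first at a mean of 27.8 RPKM, Smad3 second at 15.3 and Acvrl1 at rank 5 with 12.4. Only 3 of the 10 genes kept their rank. The deposited gene lengths were longer than the merged exons, by a ratio of 3.93 for Acvrl1 (16742 against 4265 bases), 2.89 for Eng and 1.16 for Tgfbr2. For 77.7% of the 19086 genes matched, and for 8 of the 10 genes here, the deposited length equalled the summed exons of all transcripts plus 1 base per exon. Counts and differences between groups do not depend on these lengths.

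Between mutant and control lungs, none of the 10 genes passed the test over both sexes, in males or in females. Over both sexes and in females no other gene passed either, so not passing does not show that the levels were equal. The 95% confidence intervals of the mutant over control fold change over both sexes lay between 0.781 and 1.52 for all 10 genes. The values of each gene by role are given first as CPM, scaled to the library size after TMM normalization, and then as fitted log2 differences of mutant minus control.

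Tgfbr2, the type II receptor (ENSMUSG00000032440, chr9:116084293-116175360, minus strand), had 288 and 252 CPM in mutant females, against 259 and 244 CPM in control females. In males it had 269 and 239 CPM in mutants, against 288 and 279 CPM in controls. The female groups overlapped, and both mutant males lay below both control males. Over both sexes the log2 difference was -0.03 ± 0.09 (SE, edgeR adjusted p = 0.972), with a 95% interval of -0.23 to 0.17.

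Tgfbr1, the type I receptor whose active form the mutants express (ENSMUSG00000007613, chr4:47353222-47414931, plus strand), had 80.5 and 92.3 CPM in mutant females, against 88.6 and 98.6 CPM in control females. Mutant males had 82.5 and 95.9 CPM, against 83.6 and 79.7 CPM in control males. The groups overlapped in both sexes, and the means were 87.8 ± 7.45 CPM in mutants and 87.6 ± 8.21 CPM in controls (SD, n = 4 each). The fitted log2 difference was 0.01 ± 0.09 (edgeR adjusted p = 0.996), with a 95% interval of the fold change of 0.869 to 1.16. Reads in this gene therefore did not separate the mutant from the control libraries. Whether transcripts of the active receptor would be counted under Tgfbr1 was not given in the sources used here, and the level of Tgfbr1 does not check the labels.

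Acvrl1 (ENSMUSG00000000530, chr15:101128522-101145336, plus strand) was the gene whose genotype difference changed most between the sexes. Mutant females had 240.1 and 193 CPM, against 196 and 177 CPM in control females. Mutant males had 217 and 189.8 CPM, against 229.6 and 225 CPM in control males. The female groups overlapped, and both mutant males lay below both control males. The log2 difference was 0.21 ± 0.13 in females (edgeR adjusted p = 1) and -0.16 ± 0.13 in males (edgeR adjusted p = 0.531). The difference between these, males minus females, was -0.37 ± 0.18, with a 95% interval of -0.79 to 0.05 and edgeR adjusted p = 0.428. It did not pass with the replicate number as a block either (edgeR adjusted p = 0.0904), and over all alternatives the adjusted p ran from 0.0904 to 0.866.

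The co-receptors were Tgfbr3 (ENSMUSG00000029287, chr5:107106570-107289629, minus strand) and Eng (ENSMUSG00000026814, chr2:32646595-32682669, plus strand). Tgfbr3 had 145 and 93.0 CPM in mutant females, against 116 and 92.3 CPM in control females, and 122 and 97.0 CPM in mutant males, against 134 and 112 CPM in control males. Both groups overlapped in both sexes, and within each group the first library was the higher. Eng had 128 and 112 CPM in mutant females, against 95.8 and 113 CPM in control females, and 115 and 117 CPM in mutant males, against 120.0 and 113 CPM in control males. Control female 1 was the lowest of the 8 libraries for Eng. Over both sexes the log2 difference was 0.01 ± 0.16 for Tgfbr3 (edgeR adjusted p = 0.996) and 0.10 ± 0.09 for Eng (edgeR adjusted p = 0.914).

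Of the receptor-activated SMADs, Smad3 (ENSMUSG00000032402, chr9:63646767-63757994, minus strand) had 129.6 and 99.7 CPM in mutant females, against 108 and 96.9 CPM in control females. In males it had 125 and 107 CPM in mutants, against 105 and 106 CPM in controls, so that both mutant males lay above both controls. Its log2 difference over both sexes was 0.15 ± 0.10 (edgeR adjusted p = 0.906), a fold change of 1.11 with an interval of 0.953 to 1.30. Smad2 (ENSMUSG00000024563, chr18:76241580-76310963, plus strand) had 54.4 and 57.5 CPM in mutant females, against 55.9 and 61.6 CPM in control females, and 51.8 and 61.5 CPM in mutant males, against 54.8 and 52.6 CPM in control males. The Smad2 groups overlapped, with a log2 difference of 0.004 ± 0.08 (edgeR adjusted p = 0.998).

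Smad4, the partner shared by TGF-β and BMP signalling (ENSMUSG00000024515, chr18:73639009-73703780, minus strand), was the steadiest of the 10 genes. It had 114 and 120.0 CPM in mutant females, against 113 and 125 CPM in control females, and 116 and 118 CPM in mutant males, against 120.4 and 115 CPM in control males. Its highest library exceeded its lowest 1.11-fold, and its log2 difference over both sexes was -0.01 ± 0.07, with a 95% interval of -0.16 to 0.14 (edgeR adjusted p = 0.984).

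Smad7, the inhibitory SMAD (ENSMUSG00000025880, chr18:75367529-75395935, plus strand), had the largest fitted difference of the 10 over both sexes, and it did not pass the test. It had 76.0 and 47.8 CPM in mutant females, against 52.6 and 45.8 CPM in control females, and 75.3 and 53.6 CPM in mutant males, against 56.3 and 58.5 CPM in control males. The libraries numbered 1 of both mutant groups stood at 75.3 and 76.0 CPM, and the other 6 libraries lay between 45.8 and 58.5 CPM. The log2 difference was 0.25 ± 0.16 over both sexes (95% interval -0.11 to 0.61, edgeR adjusted p = 0.902), a fold change of 1.19. It was 0.17 ± 0.22 in males and 0.33 ± 0.23 in females. Over both sexes it was 0.08 without mutant female 1 and 0.16 without mutant male 1.

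Smurf2, the ubiquitin ligase that acts with SMAD7 (ENSMUSG00000018363, chr11:106820066-106920715, minus strand), had 206 and 181 CPM in mutant females, against 208 and 185 CPM in control females. Mutant males had 186 and 177 CPM, against 214 and 177 CPM in control males. The groups overlapped, and the log2 difference over both sexes was -0.07 ± 0.09 (edgeR adjusted p = 0.943).

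**Figure D2:**
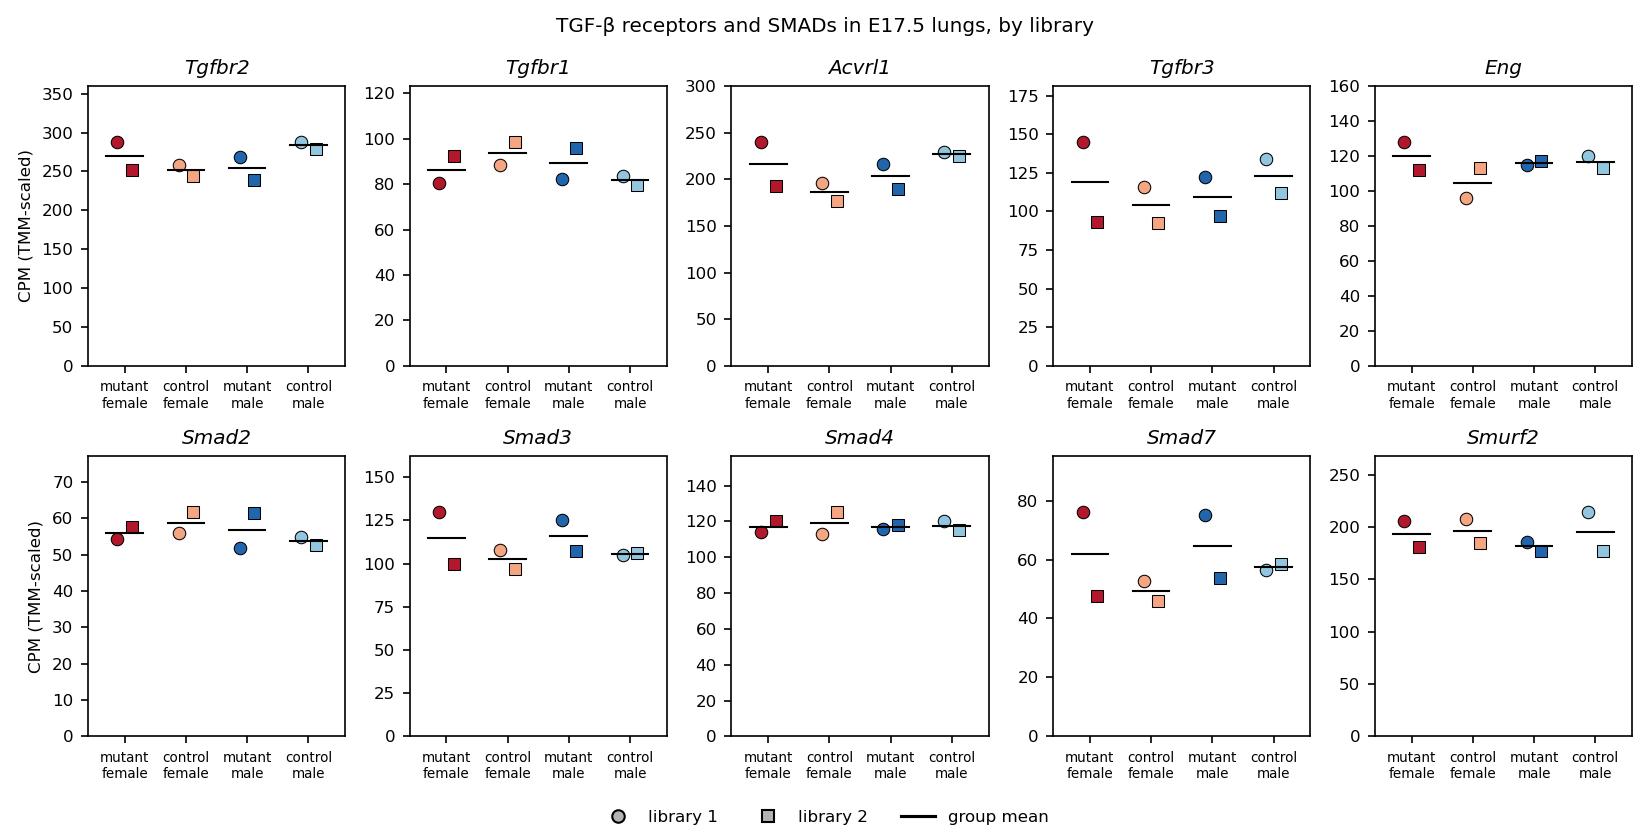
CPM of each of the 10 genes in each of the 8 libraries, by group, with each library's number. The groups overlap for most genes, and mutant female 1 and mutant male 1 stand above the other 6 libraries for Smad7.

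Some exons of these genes overlap other genes in the annotation. Eng shares 61 exon bases with Fpgs on the opposite strand, Acvrl1 127 with Gm16031 on the opposite strand, Tgfbr3 297 with Gm43422 on the same strand and Smurf2 58 with Gm27322 on the same strand. The counting rule for strand and shared reads was not given in the sources used here, and reads in these stretches are uncertain.

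The calls were read against those over all 18164 genes tested. Over both sexes 0 of the 10 genes and 0% of all genes passed an adjusted p of 0.05, with 0 of the 10 and 1061 of all genes at an unadjusted p under 0.05. DESeq2 called 88 genes there and limma-voom 0. With the replicate number as a block, 0 of the 10 and 0.0165% of all genes passed. The authors' deposited table, whose model terms were not given in the sources used here, listed 4.05% of genes at a false discovery rate under 0.05 and 0 of the 10 among them. In that deposited table the authors' log2 fold change was 0.24 for Smad7 (false discovery rate 0.278), 0.16 for Smad3 (0.298) and 0.01 for Tgfbr1 (0.969). All mutant libraries lay above all controls for 1.65% of tested genes and below them for 1.74%, and for 0 of the 10 in either direction.

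In males 0 of the 10 passed, against 1.29% of all genes (235 genes, 47 higher and 188 lower in mutants). With the replicate block, 16.7% of all genes passed in males and again 0 of the 10. The count over all genes in males fell when any male library was left out. Such a fit leaves 1 library in a group and has less power, so it cannot show whether the count rested on single libraries. The log2 differences of the 10 ran from -0.17 ± 0.22 for Tgfbr3 to 0.17 ± 0.22 for Smad7, with edgeR adjusted p of 0.471 to 0.993. Their fold change intervals lay between 0.630 and 1.60. Both mutant males lay above both control males for 26.9% of all genes and for 1 of the 10, Smad3. They lay below for 25.5% of all genes and for 2 of the 10, Tgfbr2 and Acvrl1. Neither count of the 10 is above the background. Endothelial markers summed to 2598 and 2657 CPM in mutant males, against 2971 and 2794 CPM in control males. They were thus lower in mutant males, as Acvrl1 and Tgfbr2 were. Eng, the endothelial co-receptor gene, was not, at -0.002 ± 0.12 in males (edgeR adjusted p = 0.993). In females the same 13 markers summed to 2820.3 and 2586 CPM in mutants, against 2764 and 2605 CPM in controls. Their part in the values of Acvrl1 and Tgfbr2 was not tested.

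In females 0 of the 10 and 0% of all genes passed, with 290 genes at an unadjusted p under 0.05 and 0 of the 10 among them. DESeq2 called 6 genes in females and limma-voom 0. With the replicate block, 0.0771% of all genes and 0 of the 10 passed. The log2 differences ran from -0.12 for Tgfbr1 to 0.33 ± 0.23 for Smad7, with edgeR adjusted p of 1 and fold change intervals between 0.764 and 1.80. Both mutant females lay above both control females for 11.3% of all genes and below for 10.6%, and for 0 of the 10 either way. The median log2 difference of the 10 was 0.13 in females and -0.004 in males, and over all genes tested it was -0.002 in females and 0.01 in males.

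**Figure D3:**
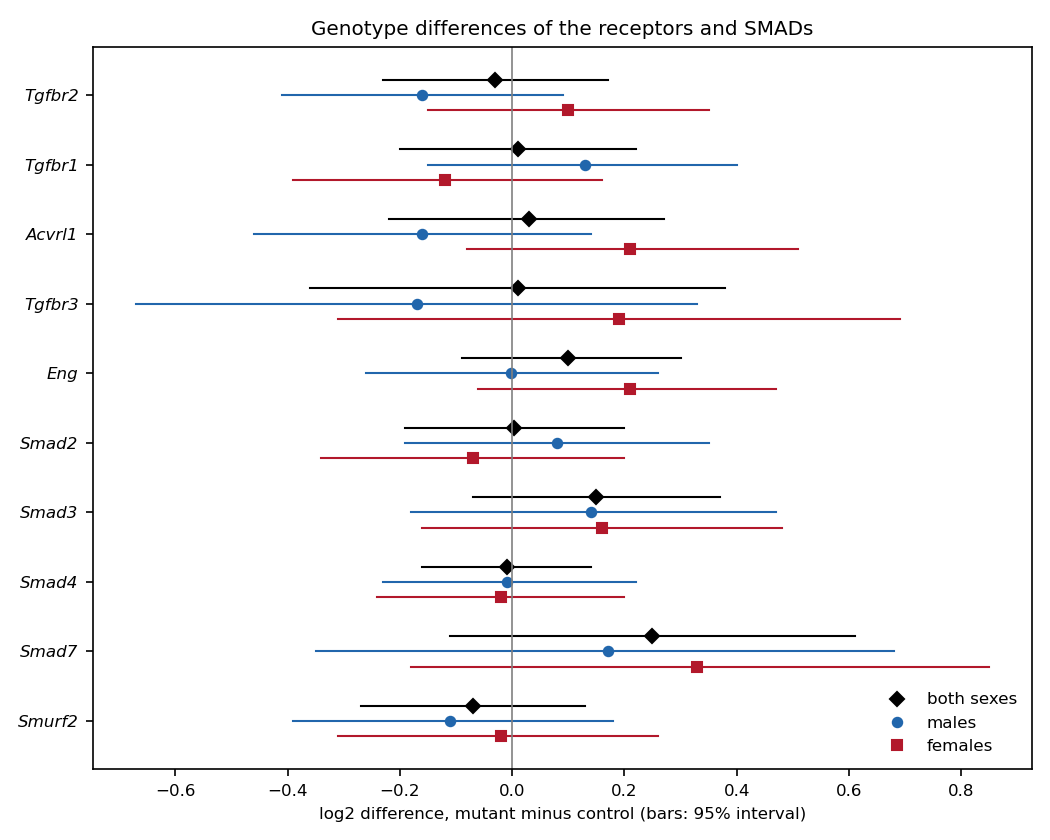
Fitted log2 difference of mutant minus control for each of the 10 genes over both sexes, in males and in females, with 95% confidence intervals. Every interval includes 0, and Smad7 in females has the highest estimate at 0.33.

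The test of the difference between the sexes called 0 of the 10 and 0% of all genes, with 2266 genes at an unadjusted p under 0.05 and 0 of the 10 among them. DESeq2 called 188 genes in that test and limma-voom 0. After Acvrl1, the largest differences, males minus females, were -0.36 ± 0.31 for Tgfbr3 (edgeR adjusted p = 0.62) and -0.26 ± 0.16 for Tgfbr2 (edgeR adjusted p = 0.493). Tgfbr1 was at 0.24 ± 0.17 (edgeR adjusted p = 0.544). With the replicate block, 9.33% of all genes passed and 0 of the 10. In that fit 3 of the 10 had an unadjusted p under 0.05, beside 4379 of all 18164 genes. The mutants lay above controls in females and below them in males for 2.73% of all genes, and the other way for 3.13%, with 0 of the 10 in either. The sex effect over both genotypes, males minus females, ran from -0.08 to 0.14 on the log2 scale for the 10. Of these 0 passed, against 0.0385% of all genes (7 genes), at an edgeR adjusted p of 1 for each of the 10.

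The fitted differences between libraries numbered 2 and 1 exceeded those between genotypes for several of these genes. What the number marks is not given in the labels. Tgfbr3 was lower in number 2 than in number 1 in all 4 groups: 93.0 against 145 CPM in mutant females, 92.3 against 116 CPM in control females, 97.0 against 122 CPM in mutant males and 112 against 134 CPM in control males. Its log2 difference, number 2 minus number 1, was -0.39 ± 0.10, a fold change of 0.761 (95% interval 0.654 to 0.887). It had an unadjusted p of 0.00297 and an edgeR adjusted p of 0.231, with an adjusted p of 0.0428 by DESeq2 and of 0.0428 to 0.658 over all alternatives. Smad7 was at -0.33 ± 0.12 (edgeR adjusted p = 0.256), Smad3 at -0.19 ± 0.08 and Smurf2 at -0.18 ± 0.07, and these 4 were the genes with an unadjusted p under 0.05. At an adjusted p of 0.05, 0 of the 10 and 0% of all genes passed, with 2952 of all genes at an unadjusted p under 0.05, 273 called by DESeq2 and 0 by limma-voom. Number 2 lay below number 1 in all 4 groups for 17.1% of all genes and for 4 of the 10, Tgfbr2, Tgfbr3, Acvrl1 and Smurf2. It lay above in all 4 groups for 15.4% of all genes and for 0 of the 10.

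Summed markers moved with the number too. Dividing cell markers (8 of 8) summed to 2444 CPM in number 2 against 1388 CPM in number 1 of mutant females, and to 2863 against 2064 CPM in control females. They summed to 2835 against 2084 CPM in mutant males and 1714 against 1248 CPM in control males. Lung epithelial markers were lower in number 2 in all 4 groups, at 8140.1 against 9634 CPM in mutant females, 7395 against 9957 CPM in control females, 7209 against 8932 CPM in mutant males and 9439 against 12014 CPM in control males. Type 1 alveolar, mesothelial, and macrophage and immune markers were also lower in number 2 in all 4 groups. Endothelial markers and fibroblast and mesenchyme markers did not differ one way. The part of any of these markers in the values of Tgfbr3, Smad7, Smad3 and Smurf2 was not tested.

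**Figure D4:**
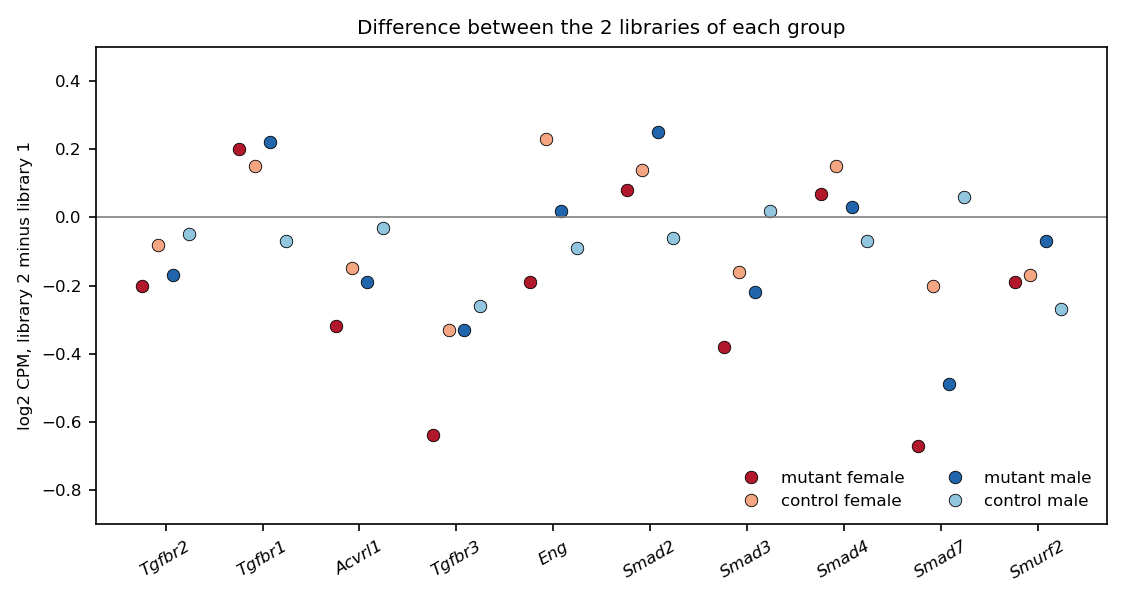
Log2 CPM of the library numbered 2 minus that numbered 1, for each of the 10 genes in each of the 4 groups. All 4 points lie below 0 for Tgfbr2, Tgfbr3, Acvrl1 and Smurf2, and Tgfbr3 runs from -0.64 in mutant females to -0.26 in control males.

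As a measure of variation over all 8 libraries, the coefficient of variation of CPM had a median of 8.16% over the 10 genes, lowest for Smad4 at 3.46% and highest for Smad7 at 19.8%. Over the 3961 tested genes in the same range of mean CPM the median was 8.50%, with quartiles of 6.12% and 12.4%. The highest library exceeded the lowest 1.66-fold for Smad7, 1.57-fold for Tgfbr3 and 1.36-fold for Acvrl1. The median of the 10 genes was thus close to that of other genes of like abundance. Smad7, and Tgfbr3 at 17.0%, lay above the upper quartile of those genes, and Smad4 lay below the lower. Between 826 and 5313 reads fell in each gene in each library.

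The genes whose pattern over the 8 libraries was most like each of the 10 were found by the root mean square difference of centred log2 CPM, among 10768 genes with a mean of at least 10 CPM. Smad7 was nearest to Adamts10, a secreted protease of fibrillin matrix, at 0.053, and to Ltbp3, a latent TGF-β binding protein, at 0.067, against its own root mean square of 0.255. Ltbp3 had 481 and 283 CPM in mutant females, against 289 and 262 CPM in control females, and 434 and 303 CPM in mutant males, against 354 and 341 CPM in control males. The highest Ltbp3 values were thus in the same 2 libraries as those of Smad7. For Tgfbr3 the transcription factor gene Irx5 was at 0.049, against its own 0.227. Acvrl1 was nearest to Tep1 at 0.032 and Gfod1 at 0.036, against 0.146. Smad3 was nearest to Itm2c at 0.036 and Camk1 at 0.053, against 0.139. Eng was nearest to Rab11fip2 and Sdc3, both at 0.048, against 0.112. For the steadier genes the nearest were Naa20 and Immt for Tgfbr1, Dnajc16 and Ranbp9 for Tgfbr2, Polr2a and Cltc for Smad2, Sec61a2 and Znrf2 for Smad4, and Mcfd2 and M6pr for Smurf2, all at 0.021 to 0.030. Many genes were compared over 8 libraries that share number and genotype, and these distances are descriptions.

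Around the receptors and SMADs, 83 other genes of the pathway in 6 lists were tested, and 0 of them passed over both sexes, in males or in females. Latent ligands and their activators (13 genes) had a median log2 difference of 0.11 over both sexes, other receptors of the superfamily (12) 0.08, other SMADs (4) 0.08, regulators of receptors and SMADs (20) 0.02, direct SMAD targets (22) 0.06 and non-SMAD signalling (13) 0.01. The 10 receptors and SMADs had a median of 0.01, as did all genes tested. With the replicate block in males, 17 of the 83 passed, or 20.5%, beside the 16.7% of all genes, with 8 higher and 9 lower in mutants. In females 0 of the 83 passed with the block. For the difference between sexes with the block, 10 of the 83 passed, beside 9.33% of all genes.

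Nedd4l and Wwp1, regulators of these proteins, had larger fitted differences in males than the 10 genes. Nedd4l, a ubiquitin ligase for SMAD2 and SMAD3, had 195 and 130.0 CPM in mutant males, against 353 and 325 CPM in control males, and 278 and 202 CPM in mutant females, against 288 and 208 CPM in control females. The male groups did not overlap and the female groups did. Its log2 difference in males was -1.06 ± 0.23 and did not pass (edgeR adjusted p = 0.0697), and it passed with the block at -1.09 (edgeR adjusted p = 5.70e-05). Its alternatives gave adjusted p of 3.21e-12 to 0.346. In females it was at -0.05 ± 0.23, and males minus females at -1.02 ± 0.33 (edgeR adjusted p = 0.366, and 0.00153 with the block). Wwp1, a related ligase that acts with SMAD7, had 84.6 and 93.2 CPM in mutant males, against 169 and 127 CPM in control males, and 115 and 111 CPM in mutant females, against 147 and 111 CPM in control females. In males Wwp1 was at -0.74 ± 0.17 (edgeR adjusted p = 0.0756, and 0.00269 with the block), with adjusted p of 3.39e-06 to 0.373 over its alternatives. The epithelial markers were also lower in males, at 8932 and 7209 CPM in mutants against 12014 and 9439 CPM in controls, and their part in these values was not tested.

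Ski and Skil, the corepressors that bind SMAD complexes, had like differences in both sexes. Ski had 270.5 and 207 CPM in mutant females, against 179 and 184 CPM in control females, and 291 and 227 CPM in mutant males, against 193 and 199 CPM in control males. Every mutant library lay above every control for Ski. Its log2 difference over both sexes was 0.40 ± 0.11 (edgeR adjusted p = 0.635), and in the authors' deposited table it was 0.41 with a false discovery rate of 0.00171. Skil was at 0.27 ± 0.10 (edgeR adjusted p = 0.789), and in the authors' deposited table at 0.28 with a false discovery rate of 0.0231. In males neither passed without the block, and both did with it. With the block Ski was at 0.39 (edgeR adjusted p = 0.0383) and Skil at 0.33 (edgeR adjusted p = 0.0184). In females neither passed with the block. Smad9, a receptor-activated SMAD of BMP signalling, had 35.3 and 27.8 CPM in mutant females, against 24.5 and 23.1 CPM in control females, and 42.8 and 33.1 CPM in mutant males, against 26.0 and 31.1 CPM in control males. Smad9 did not overlap between genotypes within either sex, at 0.41 ± 0.12 over both (edgeR adjusted p = 0.666). The authors' deposited table gave it 0.42 with a false discovery rate of 0.0482.

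Among ligands and activators, Tgfb2 had 139 and 170.3 CPM in mutant females, against 191 and 209 CPM in control females, and 155 and 148 CPM in mutant males, against 169.6 and 194 CPM in control males. The mutants were lower within each sex, with a log2 difference over both of -0.32 ± 0.09 (edgeR adjusted p = 0.656) here and of -0.31 in the authors' deposited table, at a false discovery rate of 0.00366. Thbs1, which can activate latent TGF-β, had 500.4 and 536 CPM in mutant males, against 312 and 368 CPM in control males. It was at 0.61 ± 0.15 in males (edgeR adjusted p = 0.0873, and 0.000739 with the block), with adjusted p of 0.000247 to 0.419 over its alternatives. In females Thbs1 had 396 and 492 CPM in mutants, against 466 and 552 CPM in controls, at -0.20 ± 0.15. The difference for Thbs1, males minus females, was 0.81 ± 0.21 (edgeR adjusted p = 0.338), and with the block it passed at 0.81 (edgeR adjusted p = 0.00198). Ltbp2, a matrix protein of the latent binding family, had 272 and 177 CPM in mutant females, against 146 and 146 CPM in control females, at 0.62 ± 0.22 (edgeR adjusted p = 1, and 0.00706 to 1 over its alternatives). That lowest value came from the block with the female libraries alone, and the log2 difference was 0.28 without mutant female 1. In males Ltbp2 had 199 and 143 CPM in mutants, against 187 and 218 CPM in controls, at -0.24 ± 0.21. Males minus females it was -0.86 ± 0.30 (edgeR adjusted p = 0.368), and it passed with the block at -0.87 (edgeR adjusted p = 0.035).

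SMAD targets did not move one way. In males Cdkn2b, a cell cycle inhibitor, had 10.1 and 6.74 CPM in mutants, against 24.9 and 20.3 CPM in controls, at -1.43 ± 0.32 (edgeR adjusted p = 0.0705, and 6.10e-05 with the block). In females Cdkn2b had 24.3 and 14.8 CPM in mutants, against 20.8 and 12.9 CPM in controls, and males minus females it was at -1.65 ± 0.44 (edgeR adjusted p = 0.345, and 0.000616 with the block). Tagln, a smooth muscle protein gene, had 63.3 and 69.5 CPM in mutant males, against 102 and 90.7 CPM in control males, at -0.53 ± 0.11 (edgeR adjusted p = 0.0627, and 0.00396 with the block). Smooth muscle markers, which include Tagln itself, summed to 495 and 564 CPM in mutant males, against 694 and 687 CPM in control males. Their part in the Tagln values was not tested. Id1, a target of BMP SMADs, had 74.8 and 77.9 CPM in mutant males, against 58.2 and 57.8 CPM in control males, at 0.40 ± 0.10 (edgeR adjusted p = 0.0873, and 0.0101 with the block). The alternatives gave adjusted p of 1.87e-10 to 0.358 for Cdkn2b, 0.00118 to 0.331 for Tagln and 0.0101 to 0.396 for Id1. In females Tagln was at -0.10 ± 0.11 and Id1 at 0.14 ± 0.10, and for neither did the difference between sexes pass, with or without the block. Cdkn1a in females had 57.3 and 21.3 CPM in mutants, against 22.2 and 10.4 CPM in controls, groups that overlapped, at 1.27 ± 0.54 (edgeR adjusted p = 1, and 1.14e-06 to 1 over its alternatives). It passed there only with the block and the female libraries alone, and was 0.39 without mutant female 1.

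**Figure D5:**
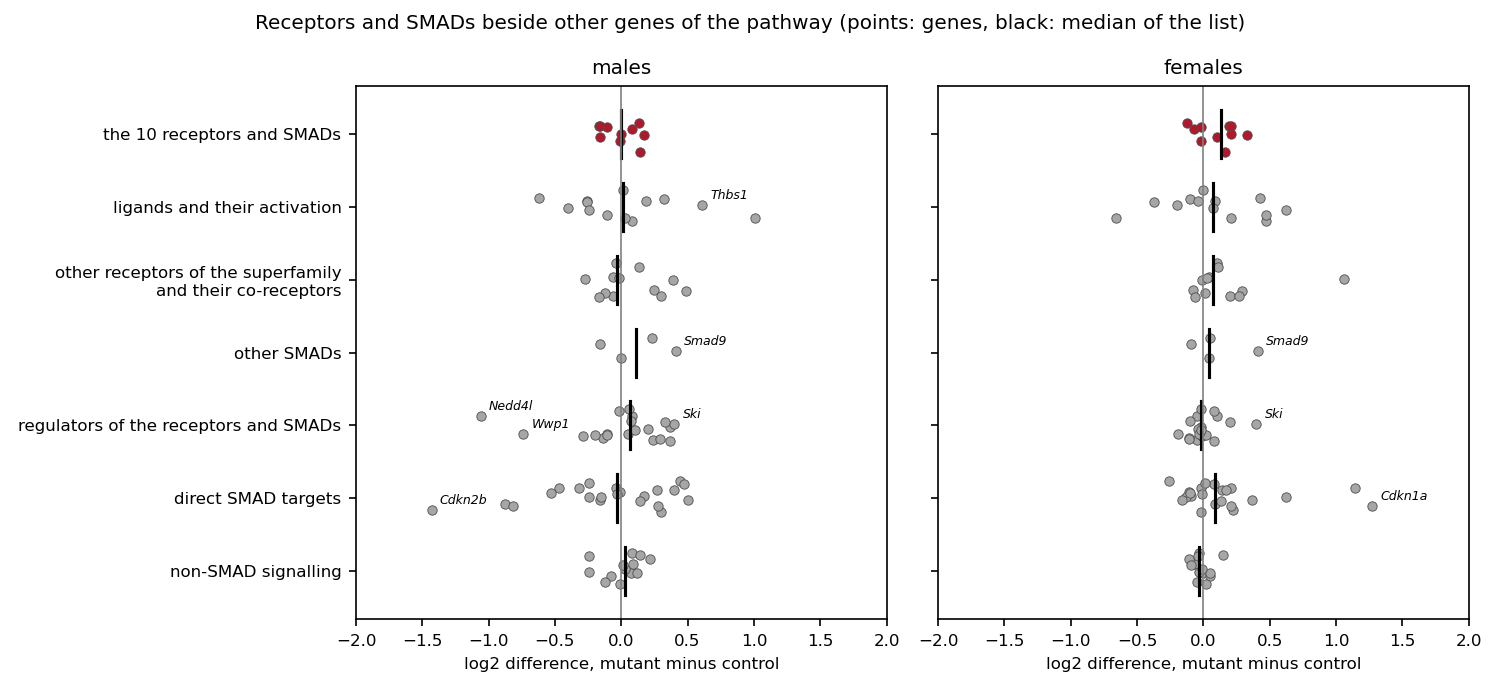
Log2 difference of mutant minus control in males and in females for the 10 receptors and SMADs and for 6 lists of other pathway genes, with 1 point per gene and a bar at each list's median. The 10 lie between -0.17 and 0.17 in males, while Nedd4l (-1.06) and Cdkn2b (-1.43) lie far lower.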

How the data were processed

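Read counts of 19150 genes in each library were deposited in 1 table by the authors, not normalized, per the file headers. The deposited table also gives RPKM for each library. For the authors' comparison of mutant with control it lists, as deposited, a log2 fold change, the score of a likelihood ratio test, its p-value and the false discovery rate. Tools named by the submitters' processing notes are STAR 2.5.2b, HTSeq 0.6.1p2, edgeR 3.16.5, Trimmomatic 0.35 and cutadapt 1.13. The build, annotation and strand setting were not given in the sources used here. No gene had a total under 28 reads.

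Here edgeR 4.0.16 under R 4.3.3 was run on the counts (TMM, filterByExpr with a minimum count of 10, quasi-likelihood tests, two-sided, Benjamini-Hochberg adjustment at 0.05 over 18164 genes). Genotype over both sexes and sex came from an additive model of both, genotype within a sex and its difference from 4 group means, and the replicate number from the additive model with that term. All 8 libraries shared 1 estimate of the spread. CPM used TMM-scaled library sizes (factors 0.975 to 1.02), and log2 CPM a prior count of 2. The tests were checked on simulated data, with planted differences larger than those of the 10 genes and libraries drawn independently. That check does not cover differences as small as those of the 10 genes, or libraries that deviate together. Intervals are 95% confidence intervals of the fit.

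Groups share the numbers 1 and 2 in the labels. Same-numbered libraries deviated together, with correlations of 0.18 to 0.626 across 12793 genes in the 6 pairs of groups, lowest between mutant and control males. The pairing rests only on this check of the same data, at a low threshold of 0.1. With 2 libraries per group, libraries can deviate together through an arbitrary numbering, so the check cannot show that the number marks a real pairing. Results with the number as a block are given where they change a count over all genes. They are given for many, not all, of the genes whose call they change. Alternatives were DESeq2 1.42.0, limma-voom (limma 3.58.1), other size factors, no filter, single-sex fits and leaving out each library.

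The genes named are the 10 receptors and SMADs, the 2 tested genes most like each, and from each pathway list those called and the 2 with the smallest p over both sexes, in males and in females. Of these, 1 is not reported here. Other names were picked with their values in view. The 10 genes and the lists were chosen with earlier results of these data known. Some markers looked up were not analysed here. Exon lengths and coordinates come from GENCODE M21 (GRCm38), matched by Ensembl ID.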

Additional observations from a re-analysis of the deposited data

How the results depend on the processing

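The sparse calls over all genes depended on the method. Over both sexes 0 genes passed, against 2 with DESeq2 size factors, 2 with no filter on low counts, 88 with DESeq2, 3 with the replicate block and 775 in the authors' deposited table. In males the 235 genes became 855 with DESeq2 and 422 with only the libraries of that sex. In females 0 became 6 with DESeq2, the difference between sexes gave 188 and the number effect 273. The number effect on Tgfbr3 passed with DESeq2, the 1 call among the 10 genes under any alternative. Leaving out 1 library gave 0 to 3 genes over both sexes, 0 to 245 in males, 0 to 1 for the difference and 0 to 87 for the number. Of the 10 genes, 3 kept their rank with the deposited RPKM.

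With the replicate number as a block, the paired fit called 3038 genes in males, 14 in females and 1695 for the difference. Restricting that fit to 1 sex, an alternative added after seeing the data, gave 2546 in males and 153 in females. It changed no call of the 10 genes.

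Of 820 values of the 10 genes under alternatives, 754 kept direction and side of the threshold, 1 passed it and 65 changed sign, 61 of them without 1 library. None that changed sign was called. Over both sexes Tgfbr3 was -0.004 with limma-voom and -0.002 with the replicate block, and Smad2 was -0.002 with both DESeq2 size factors and DESeq2. The cause was not tested. Without 1 library, these log2 differences changed sign. Over both sexes Tgfbr1 ran from -0.06 to 0.07, Tgfbr2 from -0.09 to 0.03, Tgfbr3 from -0.17 to 0.11, Acvrl1 from -0.08 to 0.10, Smad2 from -0.06 to 0.05 and Smad4 from -0.04 to 0.02. In males Eng ran from -0.05 to 0.04, Smad2 from -0.05 to 0.19, Smad4 from -0.04 to 0.03, Smad7 from -0.10 to 0.39 and Smurf2 from -0.24 to 0.04. In females Tgfbr2 ran from -0.001 to 0.20, Tgfbr3 from -0.17 to 0.47, Smad2 from -0.14 to 0.0002, Smad3 from -0.04 to 0.34, Smad4 from -0.10 to 0.06, Smad7 from -0.04 to 0.63 and Smurf2 from -0.12 to 0.07. For the difference between sexes Smad3 ran from -0.19 to 0.19, Smad4 from -0.06 to 0.09, Smad7 from -0.46 to 0.21 and Smurf2 from -0.21 to 0.06. For the sex effect Tgfbr2 ran from -0.003 to 0.11, Tgfbr3 from -0.04 to 0.23, Eng from -0.01 to 0.11, Smad3 from -0.04 to 0.11 and Smad4 from -0.04 to 0.02. For the number effect Eng ran from -0.09 to 0.06.

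Of 384 values of 27 named pathway results under alternatives, 0 changed sign and 47 passed the threshold that the reported value did not. For the difference between sexes in Ltbp2, Thbs1, Nedd4l, Cdkn2b, Itgb6, Itgb8, Fn1 and Junb, the lowest adjusted p was that with the block and the highest, over all alternatives, lay between 0.826 and 0.869. At 17561012 to 20243205 reads per library each of the 10 genes had at least 826 reads. With 2 libraries per group, the intervals rest on the spread shared by all 8 libraries.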

Other observations

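Some integrin and matrix genes of the pathway lists, and Junb, are described here. They passed in males with the replicate block and not in the same fit without it, and were chosen after their values were seen. Other genes of the lists that passed there are not described further. Among them were Tgfbi at -0.48 (edgeR adjusted p = 0.0105), Ltbp4 at -0.41 (edgeR adjusted p = 0.0193) and Bambi at 0.39 (edgeR adjusted p = 0.0214). Itgb6, the subunit of an epithelial integrin that activates latent TGF-β, had 52.6 and 33.8 CPM in mutant males, against 78.3 and 54.2 CPM in control males, and 106 and 61.3 CPM in mutant females, against 73.4 and 50.9 CPM in control females. With the block its log2 difference in males was -0.63 ± 0.10 (edgeR adjusted p = 0.00119, and 0.000165 to 0.794 over all alternatives), and males minus females it was -1.03 ± 0.14 (edgeR adjusted p = 0.000963). Itgb8, the subunit of another such integrin, was low, with 2.69 and 4.44 CPM in mutant males, against 1.78 and 1.77 CPM in control males, and 1.46 and 3.50 CPM in mutant females, against 2.85 and 4.99 CPM in control females. It was at 0.97 ± 0.30 in males with the block (edgeR adjusted p = 0.0433, and 0.0329 to 0.753 over all alternatives), and males minus females at 1.65 ± 0.41 with the block (edgeR adjusted p = 0.0259).

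Fn1, which encodes the matrix protein fibronectin, had 1198 and 1254 CPM in mutant males, against 2855 and 1657 CPM in control males, and 2089 and 1480.3 CPM in mutant females, against 1844 and 1520.0 CPM in control females. In males it was at -0.82 ± 0.16 with the block (edgeR adjusted p = 0.00402, and 1.62e-05 to 0.527 over all alternatives). DESeq2 called it as well without the block. Its control males differed from each other by more than mutant male 2 did from control male 2. Junb, an immediate early transcription factor gene, had 18.0 and 10.8 CPM in mutant males, against 27.4 and 23.3 CPM in control males, and 26.9 and 14.7 CPM in mutant females, against 22.7 and 13.3 CPM in control females. In males it was at -0.86 ± 0.16 with the block (edgeR adjusted p = 0.00308, and 6.80e-05 to 0.721 over all alternatives). With the block the difference, males minus females, passed for Fn1 at -0.90 ± 0.22 (edgeR adjusted p = 0.0248) and for Junb at -1.06 ± 0.22 (edgeR adjusted p = 0.0107). Type 1 alveolar markers, 5 of 6 looked up, summed to 758 and 506 CPM in mutant males, against 2320.1 and 1500.0 CPM in control males, and their part in these values was not tested.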
